A study of Mus musculus with 24 samples.

Results

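The integrated stress response was followed through 10 genes in the cerebral cortex and blood of neonatal mice whose dams had breathed nano-sized particulate matter (nPM) or filtered air during gestation. The 10 genes were taken by their symbols from the 48709 genes of the deposited count table. They are the 4 kinases Eif2ak1, Eif2ak2, Eif2ak3 and Eif2ak4, their substrate Eif2s1, the transcription factors Atf4 and Ddit3, the phosphatase subunits Ppp1r15a and Ppp1r15b, and the pseudokinase gene Trib3. All 10 had counts in the table. RNA sequencing covered 24 libraries, 12 from cortex and 12 from blood, with 3 libraries for each sex and exposure in each tissue. The nPM had been collected beside a Los Angeles freeway and re-aerosolised, and dams breathed it 5 h a day, on 3 days of each week of gestation. Control dams received filtered air under the same schedule. Pups were mice labelled C57BL/6J (the study's methods name C57BL/6NJ), aged 3 to 5 days, and no group carried a genetic change or a further treatment. The sex of each pup came from PCR of Sry. The labels do not name the pup or litter behind a library, so p-values measure the spread between these libraries.

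Phosphorylation of the eIF2 alpha subunit slows the loading of initiator tRNA on ribosomes, which lowers protein synthesis in general while allowing translation of a few mRNAs, Atf4 among them. Each of the 4 kinases senses a different stress. Eif2ak1 (HRI) responds to lack of heme and matches globin synthesis to heme supply in red cell precursors, Eif2ak2 (PKR) binds double-stranded RNA, Eif2ak3 (PERK) senses unfolded proteins in the endoplasmic reticulum, and Eif2ak4 (GCN2) senses uncharged tRNA. RNA levels do not measure kinase activity or phosphorylation of eIF2 alpha, and neither was measured here.

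Transcription downstream of eIF2 alpha runs through short promoter elements, and those found in the promoters of the members and of a few ATF4 targets are shown first. Promoter windows of 300 bases around the RefSeq start site (250 before and 50 after it, GRCm38.p6) were matched for 9 of the 10 genes, all but Ppp1r15b, which gave 10 windows. The C/EBP-ATF composite element TGATGNAA, to which ATF4 binds with a partner, was searched on both strands, where it reads TTNCATCA on the other strand. It was in 1 of the 10 windows, that of Trib3, against 1304 of all 32851 windows (3.97%). Among 46 known ATF4 target genes, 37 were matched and 16 of their 44 windows (36.4%) held it. In the sequences below, each of 30 bases and read 5′ to 3′ on the strand of the gene, capitals mark the fixed letters of the element.
Trib3, chr2:152344028-152344057, minus strand: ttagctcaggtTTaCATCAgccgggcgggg
Asns, chr6:7693214-7693243, minus strand: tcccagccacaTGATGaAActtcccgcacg
Atf3, chr1:191183425-191183454, minus strand: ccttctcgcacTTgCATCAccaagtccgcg
Pycr1, chr11:120643833-120643862, minus strand: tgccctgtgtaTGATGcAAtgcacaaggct
Relative to the RefSeq starts, the match of Trib3 lay 15 to 22 bases after the start and those of Asns, Atf3 and Pycr1 lay before it. The gene model in the files starts Trib3 at position 152344032, which puts the same match before its start. The cyclic AMP response element TGACGTCA, which reads the same on both strands, was in 588 of all windows (1.79%) and in that of Ppp1r15a, with no overlap with the first element.
Ppp1r15a, chr7:45526262-45526291, minus strand: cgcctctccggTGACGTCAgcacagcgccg
The ER stress element, CCAAT followed at a fixed distance by CCACG, was in 0 of the 10 windows, in 7 of 19 windows of the genes of the ATF6 and IRE1 branches (36.8%), and in 39 of all windows (0.119%). A match describes these letters only.

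The files place the 10 genes on mm10, and each value below sums reads over the exons of the whole gene. Eif2ak1 lies at chr5:143817788-143904251, Eif2ak2 at chr17:78852564-78882573, Eif2ak3 at chr6:70844515-70905245 and Eif2ak4 at chr2:118388618-118475234. Eif2s1 lies at chr12:78861819-78887010, Atf4 at chr15:80255184-80257540 and Ddit3 at chr10:127290774-127296288. Ppp1r15a lies at chr7:45522916-45526268, Ppp1r15b at chr1:133131143-133139783 and Trib3 at chr2:152337422-152344032. All are protein-coding. Strand use in the counting was not given in the sources used here, so reads of Eif2ak1 and its opposite-strand neighbours Ankrd61 and Aimp2, of Ddit3 and Mars, and of Ppp1r15a and Tulp2 may not be fully told apart. The same holds for Ppp1r15b and Gm26616, for Eif2ak2 and the non-coding n-R5s29 and Gm26637, and for Eif2ak3 and Gm43292, while Gm23346 lies on the same strand as Eif2ak3.

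Cortex libraries held 22301409 to 33804371 counts on genes (median 30633600) and blood libraries 13595647 to 21895536 (median 19825038). Globin mRNAs took 0.0244 to 0.0678% of the counts in cortex and 50.1 to 76.8% in blood. A floor of 3 counts therefore stood at 0.0887 to 0.135 CPM (counts scaled to a common library total) in cortex and 0.137 to 0.221 CPM in blood, which covers counting error only. The labels of the tissues were borne out by markers. Summed over 7 neuronal markers, cortex libraries held 6660 to 7570 CPM, with Map2 the most abundant, against 0.206 to 36.9 CPM in the 11 blood libraries analysed. Erythroid markers summed to 696000 to 791000 CPM in those blood libraries and to 252 to 701 CPM in cortex, with Hbb-bs the most abundant. Other cells of blood gave far lower sums in these 11 libraries: 59.8 to 150 CPM for neutrophil markers (S100a9 the most abundant), 55.8 to 118 for monocytes (Lyz2), 7.53 to 36.6 for B cells (Ms4a1) and 4.97 to 18.8 for T and NK cells (Cd3g). In cortex, choroid plexus markers varied from 30.8 to 507 CPM (Ttr), whereas astrocyte markers stayed at 1020 to 1210 CPM (Slc1a3). One control female blood library, V2, stood apart: its globin share was 50.1%, and it held 78.0 CPM of neuronal and 81.9 CPM of oligodendrocyte-lineage markers. It was left out of the blood comparisons, and values with it are given where they change.

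In control cortex the pathway was led by Atf4, followed by Eif2s1. Levels between genes are given as CPM per kilobase of gene, as mean ± SD. Atf4, the factor whose mRNA is translated when eIF2 alpha is phosphorylated, stood at 52.4 ± 1.81 (n = 6), and Eif2s1, which encodes eIF2 alpha, at 21.9 ± 1.36. Next came Ppp1r15b at 13.03 ± 0.726, the constitutive subunit that directs phosphatase PP1 to eIF2 alpha, and Eif2ak1 at 9.82 ± 0.386, the kinase with the highest level. The values of these 4 genes did not overlap between neighbours in the order. A lower set of 4 genes overlapped one another: Eif2ak3 at 4.33 ± 0.371, Ddit3 (CHOP) at 4.31 ± 0.414, Eif2ak4 at 3.94 ± 0.211 and Ppp1r15a (GADD34), the stress-induced phosphatase subunit, at 3.86 ± 0.237. Eif2ak2 stood below them at 1.47 ± 0.160, and Trib3, an ATF4 target that binds ATF4 and CHOP, was the lowest at 0.233 ± 0.119, from 6 to 24 counts per library over the 12 cortex libraries.

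In control blood the order changed. By the median Ppp1r15a was highest, at 13.1 (7.99 to 23.2, SD 5.98, n = 5), followed by Atf4 at 9.14 (5.25 to 35.9, SD 13.2), although Atf4 led by the mean (15.8). Eif2ak1 came next at 8.45 ± 1.60, and the values of these 3 genes overlapped. Eif2s1 stood apart below Eif2ak1 at 2.01 ± 0.709, and from it down the values of neighbours in the order overlapped. Ddit3 stood at 0.973 ± 0.636, Ppp1r15b at 0.673 ± 0.318, Eif2ak2 at 0.506 ± 0.170 and Eif2ak3 at 0.349 ± 0.148. Trib3 at 0.228 ± 0.281 was listed at 0 counts in 2 libraries, and Eif2ak4 was lowest at 0.0866 ± 0.0465. The plot of levels in every library shows both orders and the wider scatter in blood.

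**Figure D1:**
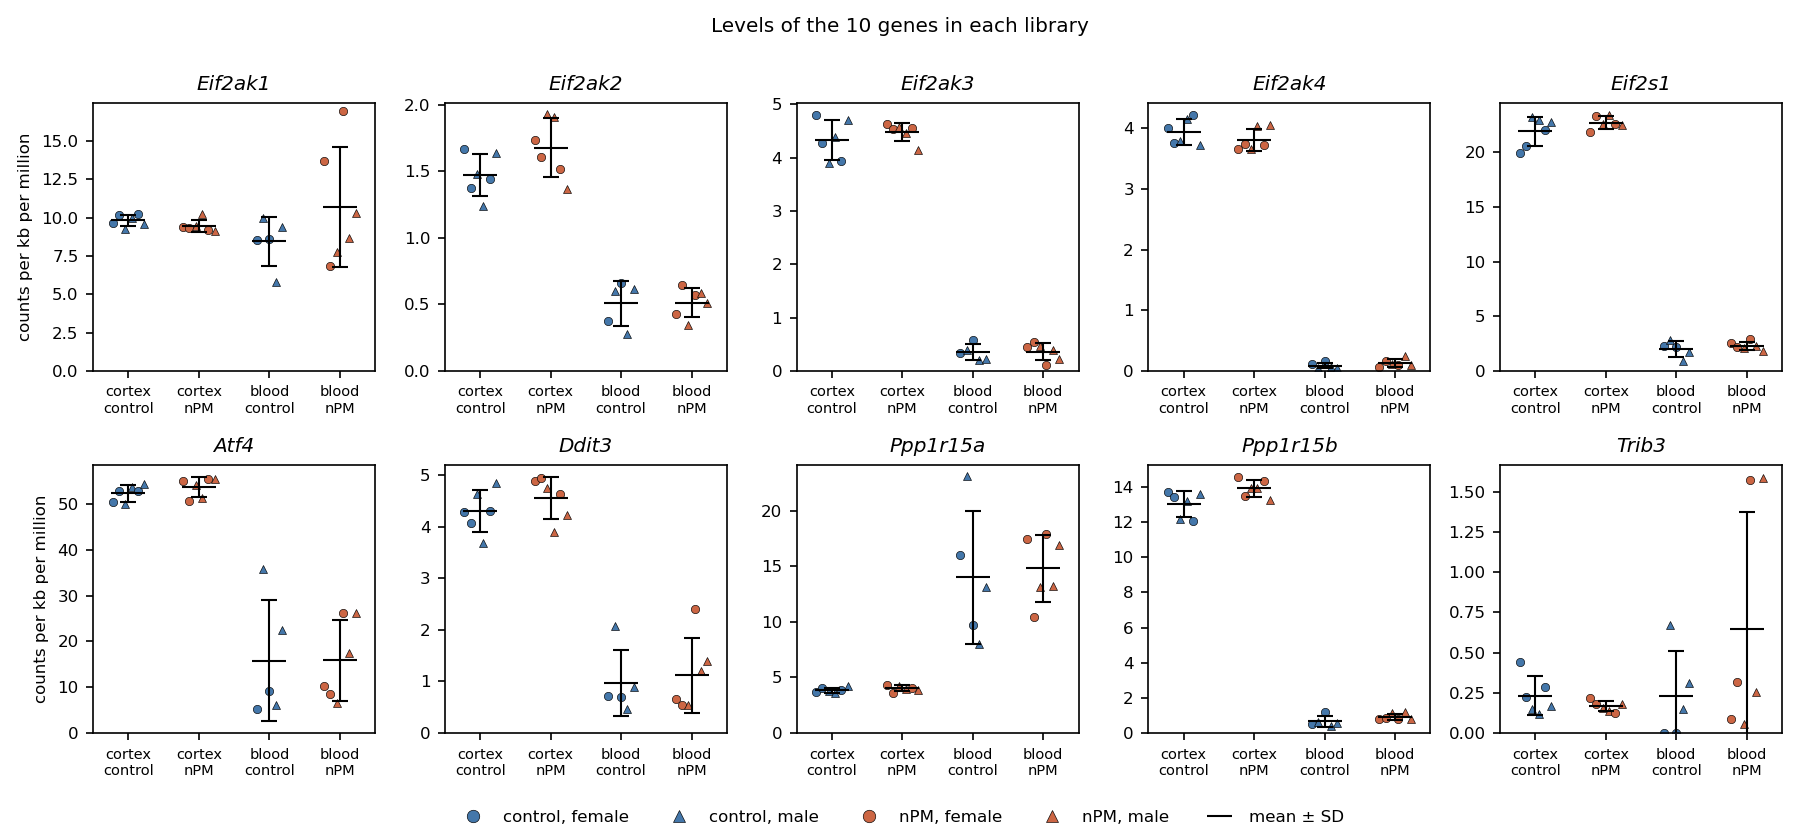
Level of each of the 10 genes in every library without V2, as CPM per kilobase of gene on linear axes from 0, by tissue and exposure, with circles for females, triangles for males and bars for the mean and SD. Cortex values lie close together, while in blood Atf4, Ddit3 and Trib3 spread widely and Eif2ak4 lies below 0.3.

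Eif2ak1 was the kinase with the highest level in both tissues but took a larger share in blood, and the leading phosphatase subunit switched from Ppp1r15b in cortex to Ppp1r15a in blood. Both are ratios within each library and do not depend on its scaling. Eif2ak1 made up 90.1% ± 2.3 of the summed per-kilobase level of the 4 kinases in control blood (lowest 86.0%, highest 91.4%, n = 5) and 50.2% ± 1.59 in control cortex (48.0 to 52.0%, n = 6). Ppp1r15a stood at 23.4 ± 10.5 times the level of Ppp1r15b in control blood (8.01 to 35.4) and at 0.297 ± 0.0226 times in control cortex (0.266 to 0.324). Eif2ak1 stood at 4.54 ± 1.21 times the level of Eif2s1 in blood and at 0.45 ± 0.0375 times in cortex. The groups did not overlap in any of these 3 ratios. Each gave p = 0.00216 in a two-sided exact permutation test, the smallest that 6 against 5 libraries allow, or 0.00864 after Benjamini-Hochberg adjustment over the 12 comparisons of ratios made. The ratio of Ddit3 to Atf4 was 0.0777 ± 0.0366 in blood and 0.0823 ± 0.0088 in cortex (exact permutation p = 0.781). These ratios were chosen after levels had been seen. V2 lay nearer to cortex in all 3 ratios: Eif2ak1 made up 57.7% of the kinases there, Ppp1r15a stood at 0.983 times Ppp1r15b, and Eif2ak1 at 0.568 times Eif2s1. With V2, control blood gave 84.7% ± 13.4, 19.7 ± 13.1 and 3.88 ± 1.95 (n = 6). In bulk RNA, fewer cells of a type and less RNA per cell cannot be told apart.

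**Figure D2:**
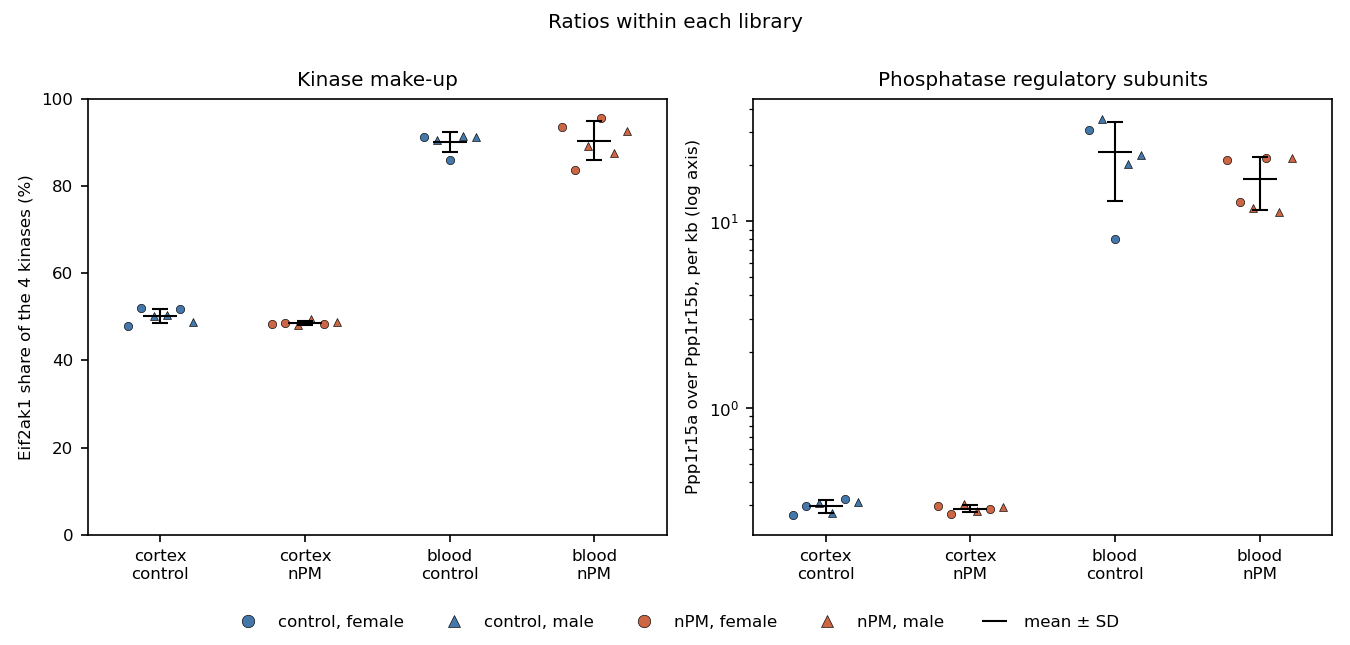
Share of Eif2ak1 among the 4 kinases (%) and ratio of Ppp1r15a to Ppp1r15b (log axis) within each library, from per-kilobase levels, by tissue and exposure, with points for libraries and bars for the mean and SD. Eif2ak1 makes up 86.0 to 91.4% of the 4 kinases in control blood and 48.0 to 52.0% in control cortex, and nPM and control libraries of 1 tissue overlap.

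A fit of control blood against control cortex, in edgeR's quasi-likelihood test with TMM scaling, called 8 of the 9 genes that could be tested (Trib3 could not), where 86.2% of all genes tested were called, so the count itself does not set these genes apart. The sign of a difference between tissues depended on the scaling. The median gene changed by -0.24 (log2, blood minus cortex) with TMM scaling and by -4.69 in plain CPM, and values are therefore given relative to that median. Ppp1r15a exceeded the median gene by 6.24, Eif2ak1 by 4.17, Eif2ak2 by 2.8, Atf4 by 2.37 and Ddit3 by 2.18 with TMM scaling, and by 6.2, 4.14, 2.81, 2.4 and 2.17 in plain CPM. Eif2s1 and Eif2ak3 lay above the median by 0.919 and 0.753, and Eif2ak4 was the 1 gene clearly below it, at -1.1. Ppp1r15b stood at the median (0.0813). In absolute terms, Ppp1r15a was higher in blood under TMM scaling (log2 fold change 6.00 ± 0.247 SE, adjusted p = 8.455e-13) and plain CPM (1.502), and Eif2ak4 was lower under both (-1.33 and -5.79). Eif2ak1 was higher with TMM scaling (3.93) but lower in plain CPM (-0.56), and the other genes called with TMM scaling turned their sign in the same way. With RNA integrity number (RIN) added, whose ranges in the tissues did not overlap, 6 of the 9 and 73.1% of all genes were called, and Eif2ak3 (0.10) and Eif2s1 (0.07) were no longer among them.

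The comparison of nPM with filtered air in cortex called none of the 10 genes at an adjusted p under 0.05 in edgeR's quasi-likelihood test with sex and RIN as covariates. The background was 3 of 20857 genes called (0.0144%). At an unadjusted p under 0.05, 0 of the 10 passed, against 5.67% of all genes, and DESeq2 and limma voom also called 0. Fold changes were small: 7 genes were higher and 3 lower, with a median log2 fold change of 0.04, against 0.00 over all genes. The nPM and control groups overlapped for all 10 genes, where 0.197% of all genes had groups apart.

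Ppp1r15b had the smallest p in cortex. TMM-scaled CPM were 67.4, 74.2 and 77.6 (lowest, median and highest) in controls and 73.8, 77.7 and 81.0 after nPM. The groups overlapped, with 3 of the 6 nPM libraries below the highest control and 3 controls above the lowest nPM library. Its log2 fold change was 0.09 ± 0.0413 SE (95% interval -0.0025 to 0.17, edgeR adjusted p = 0.862), and the two-sided exact permutation test of its mean gave p = 0.0303 without adjustment. Within the sequencing lanes the difference was 0.0911 in lane 2 and 0.0825 in lane 3. Eif2ak1, Eif2ak4, Atf4 and Trib3 also kept their sign between the lanes. The sign turned for Eif2ak2 (0.318 and -0.117), Eif2ak3 (0.0684 and -0.0143), Eif2s1 (0.0716 and -0.0155), Ddit3 (0.149 and -0.0717) and Ppp1r15a (0.102 and -0.0523).

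None of the 4 kinases passed the test in cortex, and their fold changes were small. Eif2ak1 was at 53.1, 56.0 and 58.2 TMM-scaled CPM in controls and at 51.5, 53.1 and 57.4 after exposure (log2 fold change -0.06 ± 0.042 SE, edgeR adjusted p = 0.885). Eif2ak2, which is itself induced by interferon, was at 6.34, 7.56 and 8.52 in controls and at 6.95, 8.55 and 9.87 after nPM (0.17 ± 0.0968 SE, edgeR adjusted p = 0.872). Both pairs of groups overlapped. Eif2ak3 (0.04) and Eif2ak4 (-0.05) were closer still, as was Eif2s1 (0.05).

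Against genes of all levels, Atf4 was among the steadiest in cortex. Its 12 libraries spanned 1.13-fold, and only 4.18% of all genes tested had a smaller SD. That share includes genes with as little as 1 count in a library and was not taken among genes as well counted as Atf4. The log2 fold change after nPM was 0.03 with a 95% interval of -0.05 to 0.12 (edgeR adjusted p = 0.928). Ddit3 (0.07), Ppp1r15a (0.05) and Trib3 (-0.38 ± 0.284 SE, edgeR adjusted p = 0.886) did not pass the test either.

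**Figure D3:**
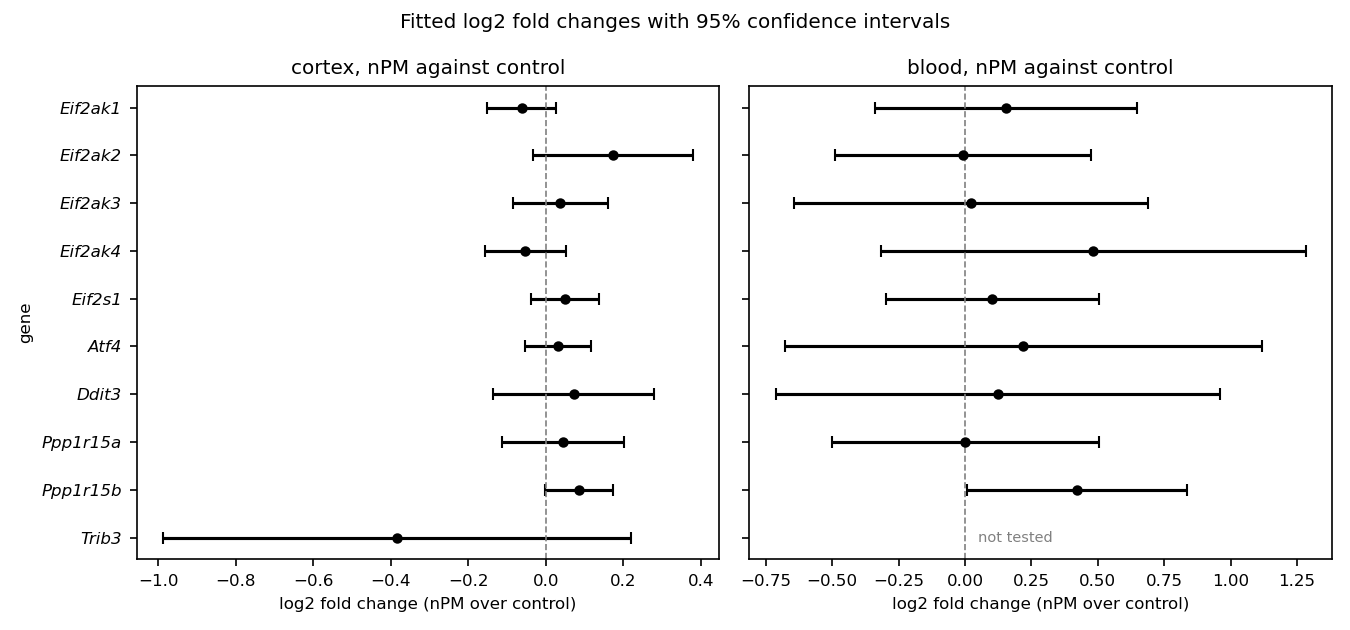
Log2 fold change of nPM against control for the 10 genes in cortex and in blood, with 95% intervals from edgeR, and 0 marked by a line. Cortex intervals are narrow and blood intervals wide, and only that of Ppp1r15b in blood (0.01 to 0.84) does not cross 0. Trib3 was not tested in blood.

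In blood, again, none of the 9 genes tested passed an adjusted p of 0.05 (0% of 9977 genes did). The groups overlapped for all 9, where 0.221% of all genes had groups apart. Of the 9, 1 had an unadjusted p under 0.05, against 3.11% of all genes, and DESeq2 and limma voom called 0 at the adjusted threshold. The 1 gene was Ppp1r15b, the constitutive phosphatase subunit. Its TMM-scaled CPM were 3.36 and 5.33 in the control females and 2.90, 3.31 and 3.46 in the control males. After nPM they were 4.54, 4.58 and 5.23 in females and 4.43, 5.56 and 5.69 in males. All 6 nPM libraries lay above 4 of the 5 controls, and the remaining control, V4, overlapped them. The log2 fold change was 0.42 ± 0.198 SE (95% interval 0.01 to 0.84, edgeR adjusted p = 1.0), and the exact permutation test gave p = 0.0195 without adjustment. It was 0.304 in lane 1 and 0.695 in lane 3. Without V4 it was 0.62 (edgeR adjusted p = 1.0), and with V2 it was 0.32 (edgeR adjusted p = 0.974). The direction matched that in cortex, but the labels do not say which cortex and blood libraries share a pup.

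Atf4 varied among blood libraries more than between exposures. In TMM-scaled CPM it was 10.4 and 12.4 in the control females and 13.9, 41.2 and 56.0 in the control males. After nPM it was 14.5, 20.3 and 45.2 in females and 10.2, 26.0 and 46.2 in males. Each exposure thus held libraries at both ends of the range. The log2 fold change was 0.22 ± 0.43 SE (95% interval -0.68 to 1.12, edgeR adjusted p = 1.0), and it was 0.552 within lane 1 and -1.12 within lane 3. Ddit3 followed the same split, at 0.929 and -1.15 within the lanes.

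Trib3 was low in blood and missed the filter because 2 control females had 0 counts. The other controls had 6, 9 and 29 counts, and nPM libraries had 68, 4 and 13 in females and 2, 10 and 65 in males. The 2 highest libraries, V3 and V7, both came from nPM pups, and the other nPM libraries lay within the range of the controls. Under a filter of at least 1 count in any library the fit called it (log2 fold change 1.88, edgeR adjusted p = 0.00795), where 0.125% of all genes were called. Within lane 1 the mean was higher after nPM (log2 ratio 2.39), and within lane 3 it was lower (-2.04).

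The other members did not pass the test in blood. Eif2ak1 ranged from 38.2 to 56.8 TMM-scaled CPM in controls and from 38.0 to 96.0 after nPM (0.16 ± 0.236 SE, edgeR adjusted p = 1.0), with 2 nPM females, V3 and V18, at 96.0 and 88.7. Eif2ak4 was near 1 TMM-scaled CPM or below in most libraries (0.48 ± 0.382 SE, edgeR adjusted p = 1.0). Eif2ak2 (-0.01), Eif2ak3 (0.02), Eif2s1 (0.10) and Ppp1r15a (0.00) lay close to 0. The share of Eif2ak1 among the kinases was 90.4% ± 4.42 after nPM in blood (exact permutation p = 0.89) and 48.6% ± 0.502 in cortex, where it differed from the control 50.2% at p = 0.0476, or 0.143 after adjustment over the 12 comparisons of ratios.

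Separate fits of the sexes asked whether an exposure difference was carried by one of them. In female cortex, 0 of 10 members passed the adjusted threshold (background 1.11%) and 2 had an unadjusted p under 0.05 (background 15.4%). Ppp1r15b was at 67.4, 74.6 and 74.9 TMM-scaled CPM in control females and at 76.1, 79.7 and 81.0 in nPM females (0.14 ± 0.0525 SE, edgeR adjusted p = 0.228), and Eif2ak1 was lower (-0.12 ± 0.0511 SE, edgeR adjusted p = 0.308). For 3 of 10 members the female cortex groups did not overlap, where 21.1% of all genes did not. Besides Ppp1r15b these were Ddit3, at 6.96 to 7.36 TMM-scaled CPM in controls and 7.88 to 8.54 after nPM, and Trib3, at 0.479 to 0.916 and 0.267 to 0.456. In plain CPM Ddit3 and Trib3 had groups apart as well, whereas those of Ppp1r15b overlapped (67.4 to 76.8 and 75.5 to 81.4). Eif2ak1 and Eif2ak4 had groups apart in plain CPM but not with TMM scaling, and both were lower after nPM. The share of all genes with groups apart in plain CPM was not counted, so these members are not set apart by it. Eif2ak1 was at 54.65 to 58.2 CPM in control females and 52.06 to 53.08 after nPM, and Eif2ak4 at 28.03 to 31.39 and 27.3 to 27.86. With 3 against 3 libraries the exact permutation test cannot go below 0.1. In male cortex 0 of 10 members had groups apart (background 9.2%), and none passed an unadjusted p under 0.05 (background 4.51%). The interaction of nPM with sex in cortex had an unadjusted p under 0.05 for 0 of 10 members, against 9.68% of all genes, so the sexes were not shown to differ.

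In female blood Atf4 was higher with TMM scaling in each of the 3 nPM libraries than in both controls analysed, without being called. After adjustment edgeR called 0 of 9 members (background 0.0182%), and 2 of 9 had an unadjusted p under 0.05 (background 8.11%). Atf4 was at 10.4 and 12.4 TMM-scaled CPM in controls and 14.5, 20.3 and 45.2 after nPM, so that the groups did not overlap (1 of 9 tested members, background 19.3%). In plain CPM they overlapped, with controls at 9.06 and 15.8 and nPM females at 14.8, 17.7 and 45.2, and V2 stood at 56.01. Its log2 fold change was 1.25 ± 0.391 SE (edgeR adjusted p = 0.573). Eif2ak1 was higher by 0.78 ± 0.343 SE (edgeR adjusted p = 0.599). Trib3 had 85 counts over the nPM females and 0 over the controls, at least 19.5-fold higher when the controls are set at a floor of 3 counts over the group. This floor is pooled over both controls (0.0713 CPM) and lies below the floor per library given above, which would give a lower bound. V3 alone held 68 of the 85 counts, and without it the bound was at least 5.84-fold. V2, the control female left out, had 49 counts, and with it the ratio in plain CPM was 1.79.

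Single libraries decided these values in female blood. The change of Atf4 was 0.68 without V3 and 1.76 without V4. Without V18 it was 1.54 and passed the adjusted threshold (edgeR adjusted p = 2.702e-04), as did Ddit3 (1.43, edgeR adjusted p = 0.0216), in a fit that called 5.05% of all genes. With V2 it was 1.44 (edgeR adjusted p = 0.619). V3 also had the lowest globin share of the 11 blood libraries, 66.2% against 71.0 to 76.8%, and the highest platelet marker sum, 400 CPM against 143 to 267, with Itga2b and Ppbp the most abundant. Their part in the result was not tested.

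In male blood the log2 fold change of Atf4 was -0.57 (edgeR adjusted p = 1.0), and 0 of 10 members had an unadjusted p under 0.05 (background 3.86%). Groups did not overlap for 2 of 10 members (background 11%). Eif2ak4 was at 0.358 to 0.637 TMM-scaled CPM in control males and 0.686 to 1.54 after nPM, and Ppp1r15b at 2.90 to 3.46 and 4.43 to 5.69. Neither overlapped in plain CPM, for which the share of all genes with groups apart was not counted. V5, the nPM male with the highest Eif2ak4, also had the highest neuronal marker sum among the 11 blood libraries, 36.9 CPM against 0.206 to 9.54 in the others, and its part in the result was not tested. V5 was also the highest of the 11 for Ppp1r15b in TMM-scaled CPM (5.69), though not in plain CPM, where V4 stood at 6.81 and V5 at 6.61. The change of Ppp1r15b over both sexes was 0.35 without V5. The interaction of nPM with sex in blood gave an unadjusted p under 0.05 for 3 of 9 members, against 10.7% of all genes. As male minus female change, these were Eif2ak1 (-1.07 ± 0.398 SE), Atf4 (-1.79 ± 0.714 SE) and Eif2ak4 (1.76 ± 0.738 SE), each with an edgeR adjusted p of 0.452, so a difference between the sexes was not called. At the nominal p of 0.005 that the study used, edgeR passed 1 of 9 members in female blood (Atf4, background 0.745%) and 0 in cortex (0.614%), blood (0.17%), female cortex (4.02%), male cortex (0.318%), male blood (0.33%) and the interactions in cortex (1.35%) and blood (0.902%). The count in female blood ranged from 0 to 3 over the alternatives, that in the blood interaction from 0 to 2, and those in blood and male blood from 0 to 1, with Ppp1r15b passing in blood without V4.

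**Figure D4:**
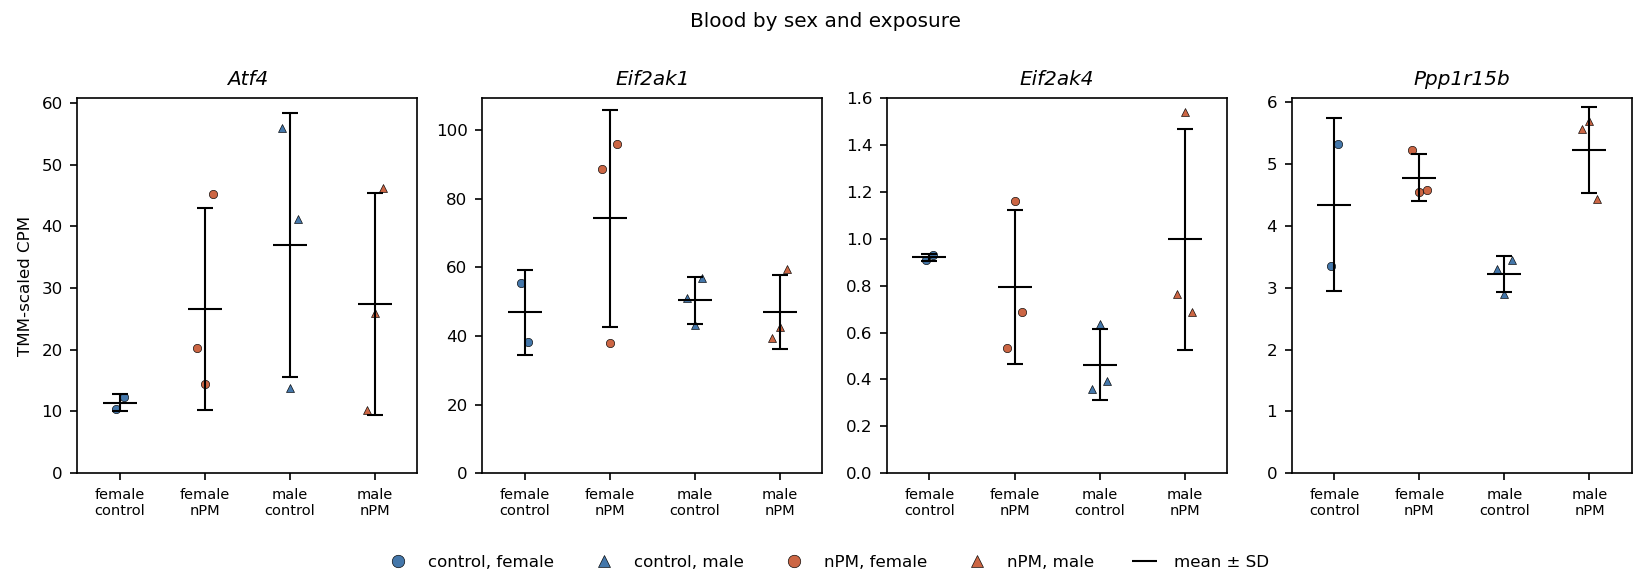
TMM-scaled CPM of Atf4, Eif2ak1, Eif2ak4 and Ppp1r15b in each blood library, by sex and exposure, without V2, with bars for the mean and SD. Atf4 after nPM lies above both controls in females (14.5 to 45.2 against 10.4 to 12.4) and overlaps the controls in males.

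Atf4 and Ddit3 were among the more variable members across blood libraries. Over the 11 libraries Atf4 spanned 5.48-fold, with an SD of log2 levels of 0.938 that exceeded that of 92% of all genes tested (median SD 0.489). Ddit3 spanned 5.06-fold, whereas Eif2ak1 spanned 2.53-fold. The 33 ATF4 targets tested spanned 1.66-fold (Xpot) to 36.5-fold (Atf5, a transcription factor of the same family), with a median of 3.59-fold against 3.13-fold over all genes, and 20 of the 33 had an SD above the median gene. The 20 genes of the ATF6 and IRE1 branches spanned 1.62-fold to 20.9-fold (Atf6b), with a median of 2.58-fold.

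Atf4 was highest in V22 (control male), V7 (nPM male) and V3 (nPM female). The same 3 libraries were the highest for 4 of 33 ATF4 targets tested (12.1%), namely Atf5 and the tRNA synthetase genes Aars, Eprs and Sars, and for 112 of 9977 genes (1.12%). Atf5 was at 70.0, 60.3 and 46.0 TMM-scaled CPM in V7, V3 and V22 and at 1.92 to 34.0 in the others. They were also the highest for 5 of 18 interferon-stimulated genes (27.8%), among them Isg15, at 165, 131 and 118 TMM-scaled CPM in V22, V3 and V7. The eIF2 and eIF2B list also holds Eif5, Eif2a and Eif2d, which encode no subunit of either complex. None of that list (0 of 9), the kinase regulators (0 of 7) or the genes of the ATF6 and IRE1 branches (0 of 20) had V22, V7 and V3 highest. These counts were made after the Atf4 values had been seen and are a description of 11 libraries, which differed in depth and globin share. Globin took 66.2% of counts in V3, 71.0% in V7 and 71.3% in V22, against 71.2% in V5 and 73.1 to 76.8% in the others. V22 and V3 also had the highest platelet marker sums of control and nPM blood (259 and 400 CPM). The part of these differences in the shared pattern was not tested.

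**Figure D5:**
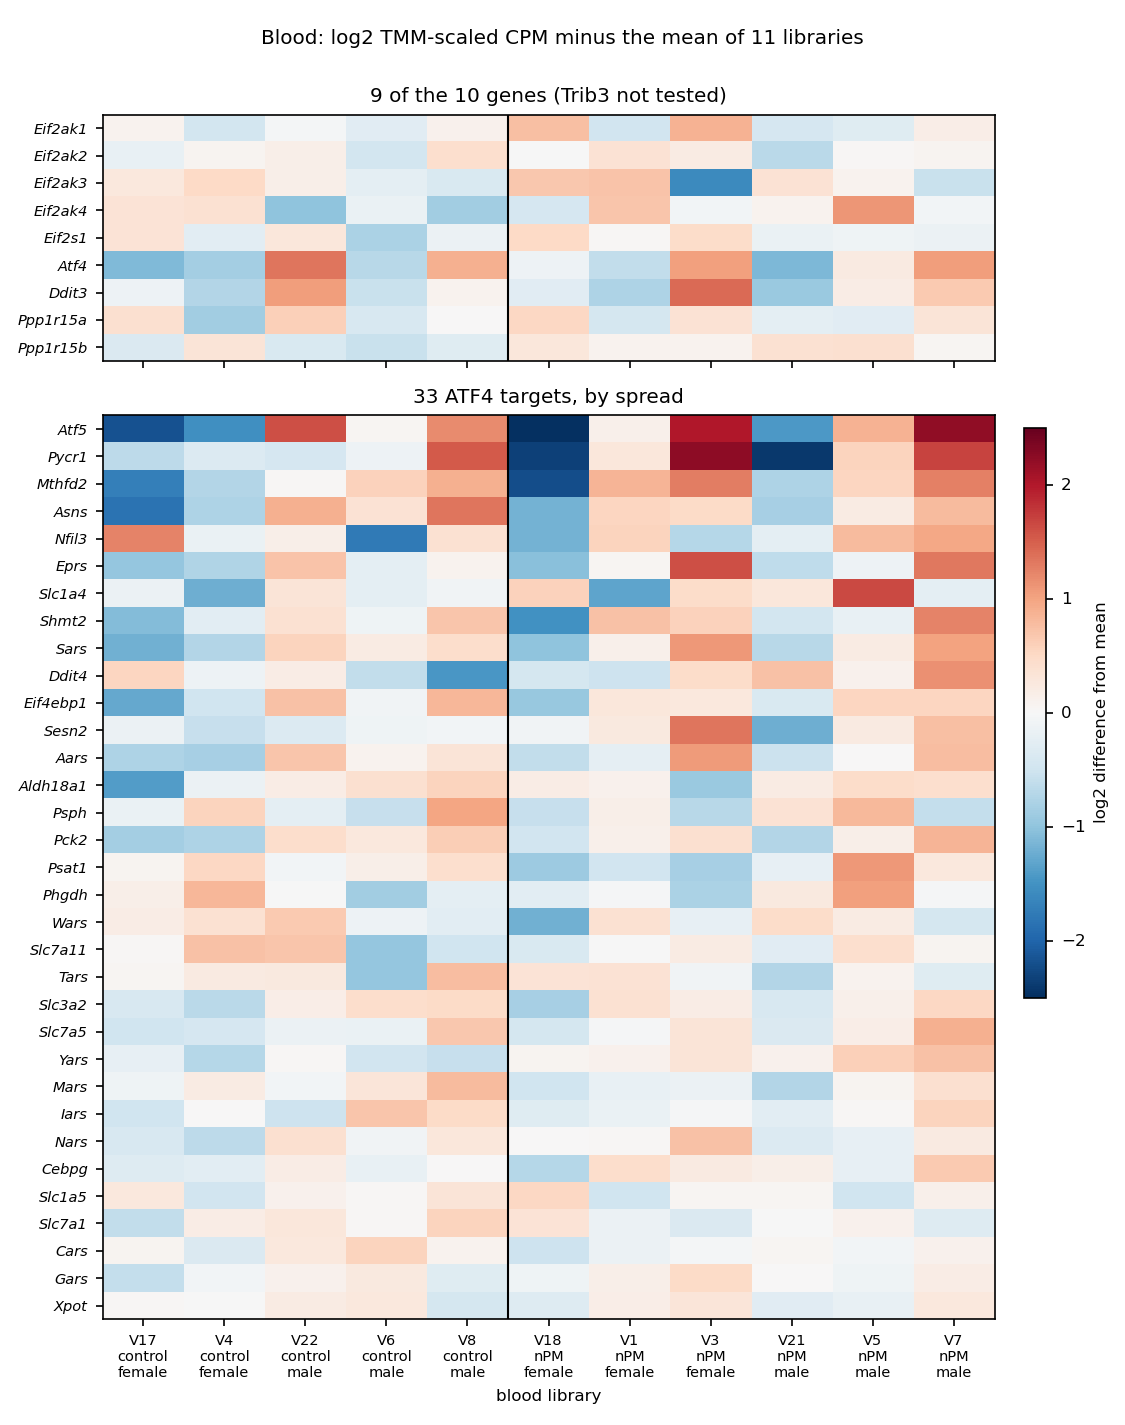
Log2 TMM-scaled CPM in each of the 11 blood libraries (columns, by exposure and sex) minus the gene's mean, for 9 members and the 33 ATF4 targets tested (rows), with red above and blue below the mean. Libraries V22, V7 and V3 are high for Atf4, Atf5, Aars, Eprs and Sars.

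The lists around the 10 genes were described by how many of their genes were higher or lower and by their median change, without a test of a list. The share of all genes higher or lower is not given beside these counts, so a count alone does not show that a list shifted. No gene of any list was called at an adjusted p under 0.05 in edgeR in cortex or in blood. In cortex 27 of 44 ATF4 targets were higher and 17 lower after nPM (median log2 fold change 0.01). The 3 with the smallest p were Nfil3, a bZIP repressor (0.17 ± 0.0761 SE, edgeR adjusted p = 0.862), Slc7a11, the cystine transporter (0.13), and Slc1a5, a glutamine transporter (0.39). In the eIF2 and eIF2B list 7 of 10 were higher (median 0.02), with Eif2d, which belongs to neither complex, at 0.09, Eif2s2 at 0.08 and Eif2b1 at 0.07. Of the kinase regulators 6 of 8 were higher (median 0.05), with Dnajc3, an inhibitor of PERK and PKR, at 0.09, Gcn1l1, the GCN2 activator, at -0.07 and Prkra, the PKR activator, at 0.11.

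The ATF6 and IRE1 genes, the other branches of the unfolded protein response, had 15 of 23 higher in cortex (median 0.03). Derl1, which acts in disposal of misfolded proteins, had the smallest p (0.12 ± 0.0442 SE, edgeR adjusted p = 0.846), followed by Ern1 (-0.12) and Atf6 (-0.07). Interferon-stimulated genes were lower for 15 of 19 (median -0.08), opposite in sign to Eif2ak2, with Xaf1 at -0.68, Ifih1 at -0.15 and Stat2 at -0.12. Immediate early genes, which respond to handling of tissue, were lower for 9 of 17 (median -0.02), with Nr4a1 at -0.23, Fos at -0.28 and Egr1 at -0.20.

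In blood 21 of 33 ATF4 targets were higher (median 0.21, all genes 0.00). They were led by Yars, a tRNA synthetase (0.70 ± 0.271 SE, unadjusted p = 0.0177 in edgeR), Mthfd2 (0.81) and Eprs (0.72). Interferon-stimulated genes were lower for 14 of 18 (median -0.34), and Ifit3 (-1.72 ± 0.512 SE) was the 1 listed gene with an unadjusted edgeR p under the study's nominal 0.005, which 0.17% of all genes passed. Irf7 (-0.76) and Ifit2 (-0.58) followed. In the eIF2 and eIF2B list 6 of 9 were lower (median -0.07), with Eif2d, which belongs to neither complex, at -0.80, Eif2b5 at -0.53 and Eif2b1 at -0.39. Kinase regulators were higher for 3 of 7 (median -0.07), with Impact, an inhibitor of GCN2 activation, at 1.02, Dnajc3 at -0.38 and Gcn1l1 at 0.10. ATF6 and IRE1 genes were higher for 12 of 20 (median 0.03), with Ern1 at 0.47, Xbp1 at 0.28 and Edem1 at 0.24, and immediate early genes for 3 of 9 (median -0.12), with Fosl2 at 0.51, Ier2 at -0.66 and Btg2 at -0.30.

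In female blood, where Atf4 was higher with TMM scaling but not called, 25 of 35 ATF4 targets tested were higher (median 0.43, all genes -0.05). Of these, 9 had an unadjusted p under 0.05 in edgeR, all higher (8.11% of all genes), and none was called after adjustment. They were Asns, Sesn2, Mthfd2, Pck2, Aars, Nars, Sars, Eprs and Atf5. Atf5 had the smallest p (2.63, edgeR adjusted p = 0.573), and Asns was higher by 1.24. Asns, Aars and Pck2 were among the targets found with the C/EBP-ATF element in a promoter window, and the others of the 9, Atf5 included, were not. Windows were matched for 37 of the 46 listed targets and 16 genes held the element, so a target without it may have had no window searched. The median change of the targets fell to 0.06 without V3 and was -0.22 with V2, so 1 library on either side decided it. The count of 9 was not repeated without V3, and the share of all genes higher is not given. In male blood 20 of 35 targets were higher (median 0.12) and 0 had an unadjusted p under 0.05.

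Between the tissues (log2 fold change, blood minus cortex, TMM scaling, median gene -0.24), the lists spanned a wide range. In the eIF2 and eIF2B list they ran from Eif2b4 (-2.14) to Eif5 (5.98), which belongs to neither complex. The lowest and highest genes were Impact (-4.28) and Oma1 (1.18) among the kinase regulators, and Slc1a4 (-5.17) and Slc1a5 (6.31) among the ATF4 targets. They were Pdia6 (-2.34) and Derl1 (2.17) in the ATF6 and IRE1 branches, Stat2 (1.04) and Rsad2 (14.4) among interferon-stimulated genes, and Fosl2 (-0.52) and Zfp36 (4.42) among immediate early genes. Plain CPM lowers such values, with the median gene at -4.69, so the sign of the smaller positive ones depends on the scaling.

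Over the 23 libraries without V2, the genes whose centred log2 levels lay nearest to those of Eif2ak1 among 9602 genes were Abtb1 (root mean square difference 0.158), Ube2f (0.198), Usp32 (0.206), Med12 (0.215) and Wwp2 (0.219), where the median gene was at 2.26. The genes nearest to Atf4 were Mpst (0.324), Ddit3 (0.342), Rpl34-ps1 (0.403), Cln8 (0.406) and Pcmtd2 (0.414), with a median of 1.57. Rpl34-ps1 is a processed pseudogene, which may share reads with its parent gene. Both orders were taken over libraries of both tissues, so they include the difference between the tissues, and its part in them was not tested.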

How the data were processed

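The authors extracted RNA from cortex and blood, prepared libraries with a RiboZero Gold kit, and sequenced them on an Illumina HiSeq. Per the labels, reads were checked with FastQC, trimmed with Trimmomatic, aligned to mm10 with HISAT2 and counted over Gencode M11 genes with featureCounts 1.5.0-p3. The deposited table holds raw counts for 48709 genes in 24 libraries, which were used as deposited. The study also left out 1 blood library for its count distribution.

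Exposure was tested with edgeR 4.0.16 (R 4.3.3) by glmQLFTest on TMM-normalized counts, with RIN and, where both sexes entered, sex as covariates. A gene entered a test where none of its libraries stood at 0 (minimum 1 count), with Benjamini-Hochberg adjustment over all of them. The tissue fit had sex as covariate. Differences in mean TMM-scaled CPM of single genes and ratios were tested by two-sided exact permutation. Log levels used a prior count of 0.5. Alternatives were limma voom 3.58.1, the method of the study, DESeq2 1.42.0, RLE scaling, other filters, no RIN, lane, the sexes as contrasts of the interaction fit, V2 kept and each library left out. The tests were tested on simulated data.

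The 10 genes and the lists were chosen with earlier results of these data known. Named genes are the 10 members and any whose groups did not overlap, the 3 genes with the smallest p of each list and every listed gene called in the cortex and blood fits, the highest and lowest of each list between tissues, the 5 nearest to Eif2ak1 and Atf4, and the most abundant gene of a marker list, of which some are not reported here. Other targets named in blood were chosen after their values were seen.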

Additional observations from a re-analysis of the deposited data

Results flagged for a closer look

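Among 40 groups of 5 or 6 libraries examined for a single distant value, of which chance alone would flag about 1 in 20, there were 2. In nPM cortex, Eif2ak1 was at 57.4 TMM-scaled CPM in V15, a male, against 51.5 to 53.6 in the other 5 libraries. In control blood, Ppp1r15b was at 5.33 in V4, a female, against 2.90 to 3.46 in the other 4, and this is the library that decided the size of its exposure difference.

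The library V2, a control female blood sample left out of the blood fits and added only as an alternative, held several members above the other 5 control blood libraries in plain CPM. Eif2ak2 was at 10.6 (others 1.40 to 3.38), Eif2ak3 at 12.3 (1.24 to 3.47) and Eif2ak4 at 8.83 (0.368 to 1.19). Eif2s1 was at 43.2 (3.13 to 9.54), Ppp1r15b at 44.8 (2.21 to 6.80) and Trib3 at 2.31 (0 to 1.43). The excess depended on the scaling. In TMM-scaled CPM Eif2ak4 (1.27, others 0.358 to 0.931) and Ppp1r15b (6.44, others 2.90 to 5.33) lay above the others, Eif2ak2 (1.52, others 1.84 to 3.38) lay below them, and Eif2ak3 (1.77), Eif2s1 (6.22) and Trib3 (0.333) lay within their range. The remaining members lay below the other controls, with Eif2ak1 at 5.89 (others 38.2 to 56.8), Ppp1r15a at 3.32 (22.4 to 61.5), Atf4 at 8.06 (10.4 to 56.0) and Ddit3 at 0.476 (0.931 to 3.22). V2 also held 78.0 CPM of neuronal and 81.9 CPM of oligodendrocyte-lineage markers, and their part in these values was not tested.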

How the results depend on the processing

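No paired analysis was possible because replicate numbers were given in accession order and the labels do not say which libraries share a pup or litter. For exposure, the number of members called stayed at 0 except under a filter of at least 1 count in any library, which called 1 in blood (Trib3, 0.125% of all genes), 1 in female blood (Trib3, 0.3%) and 2 in the blood interaction (Atf4 at -1.78 and Trib3, 0.361%), against 0 each. In females this filter admitted Trib3 through the nPM libraries alone, since both controls stood at 0, so those calls say nothing further about it. With 1 library left out it ranged from 0 to 2 in female blood. Between tissues it was 8 (86.2% of all genes), with 6 when RIN was added (73.1%), 7 with V2 (76.8%) and 9 in plain CPM (95.8%). Signs of values near 0 turned. In blood, Eif2ak2 was 0.0086 by DESeq2, 0.0152 by limma voom, 0.0085 with RLE scaling and 0.14 with V2, Eif2ak3 was -0.14 by limma voom, Ddit3 was -0.0274 with lane added, and Ppp1r15a was -0.0018 with filterByExpr. Between tissues, plain CPM (chosen after seeing the data) gave Eif2ak1 -0.56, Eif2ak2 -1.88, Eif2ak3 -3.95, Eif2s1 -3.79, Atf4 -2.29 and Ddit3 -2.52, and Ppp1r15b was 0.0833 by DESeq2, 0.0808 with RLE and 0.13 with filterByExpr. With 1 library left out, values crossed 0 for Ppp1r15a in cortex (-0.0124 to 0.0812) and, in blood, for Eif2ak2 (-0.12 to 0.12), Eif2ak3 (-0.21 to 0.21), Eif2s1 (-0.0718 to 0.26), Atf4 (-0.13 to 0.55), Ddit3 (-0.21 to 0.49) and Ppp1r15a (-0.21 to 0.17). The cause was not tested. Of 196 further fits of members for exposure, 188 kept direction and call.

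Counts of all genes called, the background, moved with the loosest filter to 185 from 3 in cortex, 28 from 0 in blood, 1280 from 241 in female cortex (0 when taken as a contrast of the interaction fit) and 59 from 2 in female blood. With 1 library left out they ranged from 23 to 383 in female cortex and from 4 to 570 in female blood. Trib3 and Eif2ak4 had few counts in blood, which limits their precision.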
